A study of Mus musculus with 24 samples.

Results

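The enzymes that make and recycle glutathione, together with the transporter that brings in its cysteine, were described in the livers of mice with and without hepatic NRF2. There were 7 genes, named by a list of this pathway (Slc7a11, Gclc, Gclm, Gss, Gsr, Oplah and Ggct) and matched by their symbols in the count table, of 15160 genes in all, and all 7 passed the filter on low counts. Slc7a11 passed only through the groups in which it is high, since most control mice had almost no read of it.

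Glutathione is built from glutamate, cysteine and glycine and is the main soluble antioxidant of the liver. Glutamate-cysteine ligase joins the first pair of amino acids, glutathione synthetase adds glycine, and the cysteine comes from the diet, from cystine taken up by the cell, or from methionine, which the liver converts to cysteine. NRF2 (encoded by Nfe2l2) is the transcription factor known for acting on this pathway through antioxidant response elements, and ATF4, the factor of the amino acid response, is known to act on cystine uptake.

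Liver RNA was sequenced from 24 male mice, 6 for each pair of genotype (WT or NRF2 KO) and diet (Con or MR), and 22 mice entered the tests. The study set aside 1 WT Con and 1 WT MR library as outliers of a principal component analysis, and WT_CON_7604 and WT_MR_7612 were left out here in their place, since its text does not number them. All mice carried the floxed Nfe2l2 allele on both chromosomes: the WT mice (NRF2fl/fl) were littermates without Cre, and the NRF2 KO mice (NRF2fl/(alb)) carried Cre under the albumin promoter, which is active in hepatocytes. The study holds that Nfe2l2 mRNA left in NRF2 KO liver most likely comes from resident macrophages. From 8 weeks of age, and for a time given as 8 weeks, mice ate amino acid diets without cysteine. Methionine made up 0.86% (Con) or, under methionine restriction (MR), 0.17%. Livers were taken after a 4 h fast at an age given as 5 months, which is later than the end of those 8 weeks. The study describes calorimetry and a return to home cages between its 8 weeks of diet and the harvest of tissue. Diet and genotype were compared to ask which hepatic responses to methionine restriction need NRF2.

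The libraries held 6197291 to 22414684 counted reads over the 24 mice, with a median of 11538109 in WT MR and 14860992 to 16173154.5 in the other groups, and values are given as CPM, reads per 1000000 reads after TMM scaling. Reads come from the 3′ ends of transcripts, so CPM is not divided by gene length and levels were not compared between genes. Of 6 hepatocyte markers, 5 were in the tables, and their summed level was 83280 to 114100 CPM in WT Con, 72700 to 90110 in WT MR, 108300 to 128100 in NRF2 KO Con and 90970 to 113400 in NRF2 KO MR. The diets overlap in both genotypes, and on MR all WT mice lay below all NRF2 KO mice. Nfe2l2 itself was higher in NRF2 KO (202 to 339 CPM) than in WT (94.0 to 125 CPM without 1 library). The deletion removes a stretch of exon 5, the last exon, where 3′ reads also fall, and the counts do not show on which side of the removed stretch they lie, so they did not check the deletion. The library labelled WT_CON_7607 had 324 CPM, within the range of NRF2 KO Con although labelled WT. Results in WT Con are given with and without it where it matters. In the NRF2 targets Gstm1, Gstm3, Nqo1, Srxn1 and Txnrd1 every WT Con mouse, this library included, was above every NRF2 KO Con mouse. In the targets Aox1, Ephx1, Gsta2 and Ugdh these groups overlapped. Whether the label is right was not tested.

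Promoters of 4 of the 7 genes (Slc7a11, Gclm, Gss and Ggct) were matched in RefSeq sequence of build GRCm38.p6, and 3 are shown because they hold letters of the elements that ATF4 or NRF2 is known to bind. Each line gives the 250 bases before the start annotated by RefSeq, 5′ to 3′ on the strand of the gene, and capitals mark matches to either element. They lie at chr3:50443614-50443863 (minus strand) for Slc7a11, chr3:122245307-122245556 (plus strand) for Gclm and chr6:54992868-54993117 (minus strand) for Ggct. GENCODE places the start of Ggct at 54992950, within the stretch shown, so distances for Ggct hold for the RefSeq start only.
Slc7a11: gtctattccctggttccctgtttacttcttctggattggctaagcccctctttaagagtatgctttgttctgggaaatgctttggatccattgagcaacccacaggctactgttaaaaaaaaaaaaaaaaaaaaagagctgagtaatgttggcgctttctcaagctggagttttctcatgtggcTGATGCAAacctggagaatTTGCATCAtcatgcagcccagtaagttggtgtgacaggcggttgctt
Gclm: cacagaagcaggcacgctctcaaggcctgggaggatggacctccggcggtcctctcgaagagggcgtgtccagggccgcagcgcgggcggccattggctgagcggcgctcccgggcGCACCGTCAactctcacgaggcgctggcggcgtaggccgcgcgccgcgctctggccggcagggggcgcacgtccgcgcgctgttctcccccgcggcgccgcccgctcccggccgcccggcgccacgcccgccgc
Ggct: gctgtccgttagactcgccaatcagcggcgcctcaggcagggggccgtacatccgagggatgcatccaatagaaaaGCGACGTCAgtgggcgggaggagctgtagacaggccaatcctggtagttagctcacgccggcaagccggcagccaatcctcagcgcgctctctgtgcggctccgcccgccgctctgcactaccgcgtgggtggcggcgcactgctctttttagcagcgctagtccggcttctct
The amino acid response element was searched as TGATGNAA and the core of the antioxidant response element as TGACNNNGC, on both strands, in windows of 250 bases before and 50 bases after a start, and no matches overlapped. Slc7a11 held 2 matches to the amino acid response element, TGATGCAA beginning 66 bases before the start and TTGCATCA on the other strand beginning 47 bases before it, and none to the antioxidant core. Such a match occurred in 3.97% of 32851 windows. Gclm held 1 match to the antioxidant core (GCACCGTCA, the reverse strand, 134 bases before the start) and Ggct held 2 (GCGACGTCA, 174 bases before the start, and TGACGCTGC just after it). The antioxidant core occurred in 12.39% of windows, and neither was found in the window of Gss. These are matches of letters and say nothing of binding, since binding was not measured.

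Methionine restriction raised 5 of the 7 genes in WT mice (Slc7a11, Gclm, Gss, Gsr and Oplah) and 5 in NRF2 KO mice (Slc7a11, Gclm, Gss, Gsr and Ggct), and lowered none. Over all 13336 genes tested, 6.91% were called higher in WT and 6.23% in NRF2 KO, at an adjusted p under 0.05. The tests were quasi-likelihood F-tests of edgeR, and p was adjusted over all genes tested by Benjamini-Hochberg, here and for every adjusted p below. The shares called lower were 6.91% in WT and 6.34% in NRF2 KO. Slc7a11 could be tested because it is high on MR, and without it the counts were 4 of 6 in WT and 4 of 6 in NRF2 KO. The median log2 fold change of the 7 genes was 0.54 in WT and 0.46 in NRF2 KO, beside -0.01 and -0.00 over all genes tested. NRF2 KO lowered 1 of the 7 genes on Con (Gclc) and 3 on MR (Slc7a11, Gclc and Gclm), and raised none. Leaving out Slc7a11, it lowered 1 of 6 on Con and 2 of 6 on MR. The share of all genes called lower was 1.27% on Con and 1.38% on MR, and that called higher 0.802% and 0.555%. Without the library labelled WT_CON_7607 the counts over all 7 genes were 5, 4, 1 and 3 in this order, the lost gene being Ggct in NRF2 KO.

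**Figure D1:**
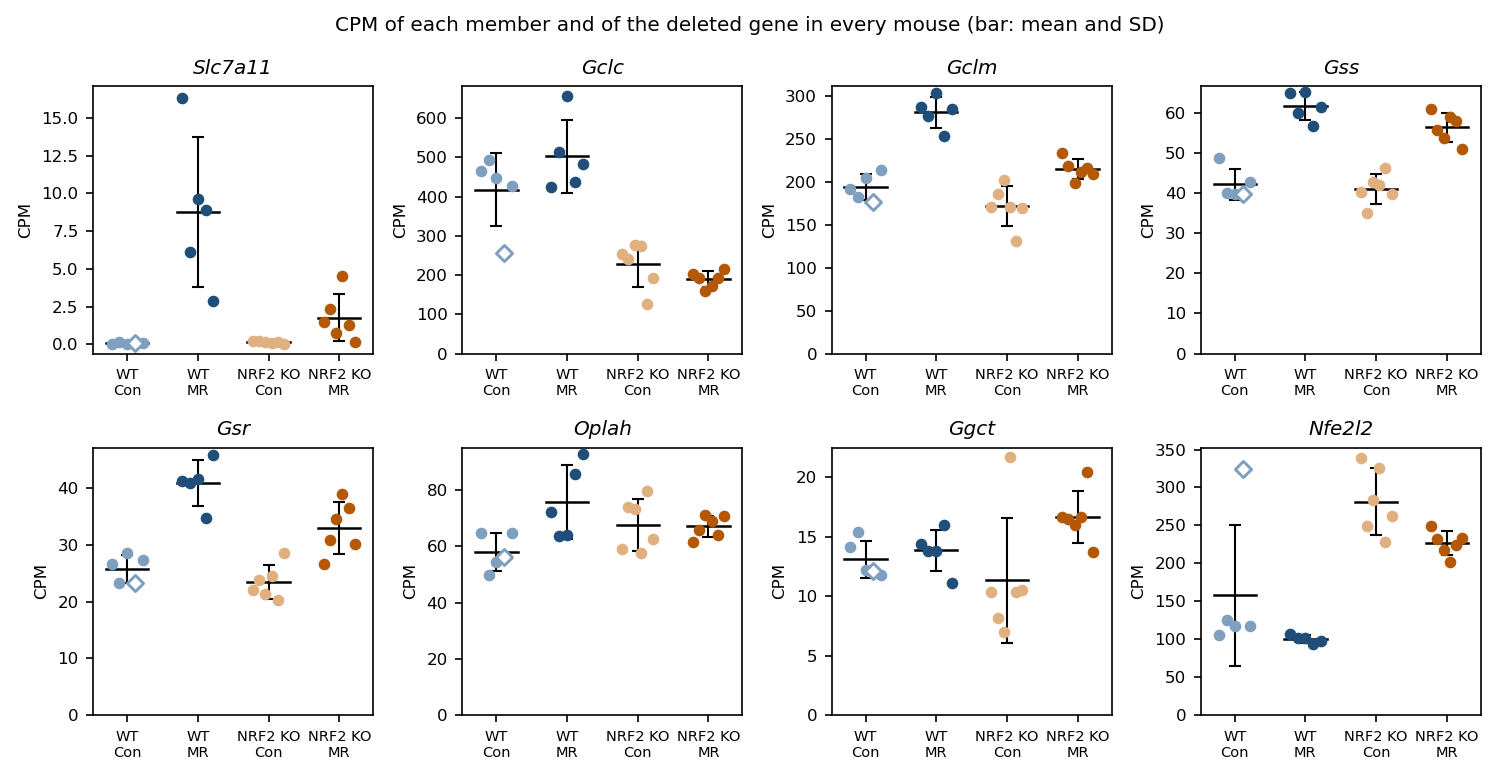
CPM of the 7 genes and of Nfe2l2 (vertical axes, each from about 0 with its own scale) in every mouse of the 4 groups, where points are mice, bars are the group mean and SD, and the open diamond is the library labelled WT_CON_7607. The 5 WT MR mice lie above all WT Con mice in Slc7a11, Gclm, Gss and Gsr, and Gclc is lower in both NRF2 KO groups.

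Slc7a11 (chr3:49892526-50443614 in GRCm38, 12 exons, minus strand) encodes xCT, the subunit of the cystine-glutamate exchanger that carries out the exchange, and was nearly silent on Con. In WT Con its CPM was 0, 0.152, 0, 0.0722 and 0.126, from 0, 2, 0, 1 and 3 reads, and in WT MR it was 16.3, 6.13, 9.60, 8.89 and 2.85, from 33 to 245 reads. The lowest, median and highest CPM of the NRF2 KO mice were 0, 0.170 and 0.259 on Con and 0.136, 1.41 and 4.56 on MR. Every WT MR mouse was above every WT Con mouse, whereas 1 NRF2 KO MR mouse, with 2 reads, lay within the range of NRF2 KO Con.

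Pooled over mice, the CPM of Slc7a11 in WT MR was 123 times that of WT Con (566 against 6 reads, exact 95% interval 56.2 to 337), and that of NRF2 KO MR was 11.8 times that of NRF2 KO Con (191 against 14 reads, 6.86 to 22). These intervals cover counting error only. Between mice, the fit gave Slc7a11 a log2 fold change of 6.79 (SE 0.79, adjusted p = 2.3e-05) in WT and 3.48 (SE 0.74, adjusted p = 0.0042) in NRF2 KO by edgeR. Since Slc7a11 entered the test through its level on MR, these values describe the same reads and are no independent support, and a fold over so few reads depends on the fit. On MR it was lower in NRF2 KO than in WT by edgeR (log2 fold change -2.29, SE 0.47, adjusted p = 0.0095), and the ranges of these groups overlapped between 2.85 and 4.56 CPM. The pooled ratio of WT MR to NRF2 KO MR was 4.85 (4.11 to 5.74, counting error only). On Con the 14 reads of NRF2 KO and the 6 of WT gave a ratio of 2.15 (0.777 to 6.83), and a difference was not detectable at this depth, where 3 reads are worth 0.126 to 0.272 CPM on Con.

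The mice set aside stood far from their groups in Slc7a11. WT_CON_7604 held 159 reads of it (9.57 CPM in the scaling of all 24 mice) and WT_MR_7612 held 3137 (132 CPM). With all 24 mice in the edgeR fit, WT mice gave a log2 fold change with MR of 4.16 (adjusted p = 0.013) while NRF2 KO mice gave 3.48 (adjusted p = 0.26, no longer called), and on Con the difference between genotypes turned from 1.02 to -3.37 without a call in either. On MR the difference between genotypes moved from -2.29 to -4.05, with an adjusted p that rounds to 0.05.

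Gclc (chr9:77754535-77794485, 16 exons, plus strand) encodes the catalytic subunit of glutamate-cysteine ligase, which sets the pace of glutathione synthesis, and it was called lower in NRF2 KO on both diets and was not called with diet in either genotype. Its CPM was 465, 493, 447, 256 and 428 in WT Con and 423, 514, 655, 437 and 483 in WT MR. The lowest, median and highest CPM of NRF2 KO mice were 125, 247 and 276 on Con and 159, 193 and 216 on MR. On MR all NRF2 KO mice lay below all WT mice, and on Con they did so apart from the library labelled WT_CON_7607, the 256 CPM of which falls among the NRF2 KO Con mice.

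Gclc was lower in NRF2 KO by a log2 fold change of -0.88 on Con (SE 0.18, adjusted p = 0.0071, edgeR) and -1.41 on MR (SE 0.18, adjusted p = 2.9e-05, edgeR). In levels this was 0.543 times the WT value on Con and 0.376 times on MR. Without the library labelled WT_CON_7607 the difference on Con was -1.01 (adjusted p = 0.00068, edgeR), and with only the Con groups in the fit it was not called. Diet gave 0.27 in WT (95% interval -0.11 to 0.65, adjusted p = 0.37) and -0.26 in NRF2 KO (-0.61 to 0.08, adjusted p = 0.33) by edgeR, and both intervals include 0. With WT_CON_7607 left out the value in WT was 0.14 (adjusted p = 0.66, edgeR).

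Gclm (chr3:122245557-122270732, 7 exons, plus strand) encodes the modifier subunit, which makes the ligase more efficient, and it rose on MR in both genotypes. Its CPM was 192, 182, 204, 177 and 214 in WT Con and 287, 277, 303, 253 and 285 in WT MR. In NRF2 KO the lowest, median and highest were 131, 171 and 202 on Con and 199, 214 and 234 on MR. The WT groups did not overlap, and the NRF2 KO groups overlapped between 199 and 202 CPM.

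The rise of Gclm was 1.45-fold in WT (log2 fold change 0.54, SE 0.09, adjusted p = 0.00033) and 1.25-fold in NRF2 KO (0.32, SE 0.08, adjusted p = 0.011) by edgeR. On MR all NRF2 KO mice were below all WT mice, as for Gclc (-0.39, SE 0.09, adjusted p = 0.011, edgeR), although with all 24 mice in the fit this was not called (adjusted p = 0.089, edgeR). On Con the difference was -0.17 (95% interval -0.35 to 0.00, adjusted p = 0.36, edgeR). Among all genes tested, 2.91% lay lower in NRF2 KO on MR without overlap. The last exon of Gclm is overlapped on the opposite strand by Gm17494, and whether the counting used strand is not given in the sources used here.

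The ratio of the subunits was computed within each mouse, as Gclc reads per Gclm read. It was 2.43, 2.70, 2.19, 1.45 and 2.00 in WT Con and 1.47, 1.86, 2.16, 1.73 and 1.69 in WT MR, with means of 2.15 ± 0.475 (SD, n = 5) and 1.78 ± 0.254 (SD, n = 5). The NRF2 KO mice had 1.31 ± 0.237 (SD, n = 6, 0.954 to 1.61) on Con and 0.880 ± 0.0833 (SD, n = 6, 0.802 to 1.03) on MR. The NRF2 KO MR mice lay below every WT mouse, and they overlapped with NRF2 KO Con between 0.954 and 1.03. Without the library labelled WT_CON_7607 the WT Con mean was 2.33 ± 0.303 (SD, n = 4). The ratio is a description and was not tested, and it does not give the ratio of subunit proteins.

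**Figure D2:**
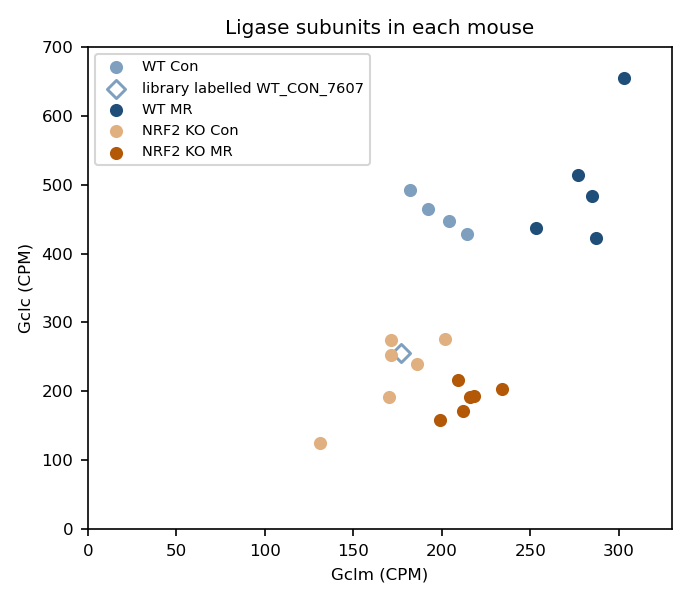
Gclc against Gclm in CPM (linear axes from 0), where each point is 1 mouse, coloured by group, and the open diamond is the library labelled WT_CON_7607. NRF2 KO mice lie at 125 to 276 CPM of Gclc, the other WT mice at 423 to 655, and on MR both genotypes are shifted to higher Gclm.

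Gss (chr2:155563181-155592810, 13 exons, minus strand) encodes glutathione synthetase, which adds glycine in the last step. Its CPM was 48.8, 40.0, 39.7, 39.9 and 42.7 in WT Con and 65.0, 59.9, 65.2, 56.8 and 61.6 in WT MR. For NRF2 KO mice the lowest, median and highest were 35.0, 41.2 and 46.2 on Con and 51.0, 56.9 and 60.9 on MR. The diets did not overlap in either genotype, and Gss was the single gene of the 7 for which that held in NRF2 KO. Of all genes tested, 2.62% lay higher there without overlap. In WT 4 of the 7 did so (Slc7a11, Gclm, Gss and Gsr), beside 5.32% of all genes tested. Slc7a11 could be tested only because it is high on MR.

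Gss rose 1.46-fold in WT (log2 fold change 0.55, SE 0.08, adjusted p = 5.6e-05) and 1.37-fold in NRF2 KO (0.46, SE 0.07, adjusted p = 0.00017) by edgeR. The genotypes were not called different on Con (-0.04, 95% interval -0.19 to 0.11) or on MR (-0.13, -0.28 to 0.02). The last exon of Gss is overlapped by Acss2 on the opposite strand, so reads of the 2 genes could be mixed if strand was not used.

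Gsr (chr8:33652523-33698163, 13 exons, plus strand) encodes glutathione reductase, which returns oxidised glutathione to its reduced form with NADPH. Its CPM was 26.6, 23.3, 28.5, 23.2 and 27.4 in WT Con and 41.2, 40.9, 41.7, 34.7 and 45.9 in WT MR. The NRF2 KO mice had a lowest, median and highest of 20.3, 23.0 and 28.6 on Con and 26.7, 32.8 and 38.9 on MR. The WT groups did not overlap, and the NRF2 KO groups overlapped between 26.7 and 28.6 CPM.

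Gsr rose 1.58-fold in WT (log2 fold change 0.66, SE 0.10, adjusted p = 0.00017) and 1.41-fold in NRF2 KO (0.49, SE 0.09, adjusted p = 0.0014) by edgeR. On MR the NRF2 KO mice were at -0.31 against WT (95% interval -0.51 to -0.11, adjusted p = 0.10, edgeR), which did not pass, and on Con at -0.14 (-0.35 to 0.07, adjusted p = 0.56, edgeR).

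Oplah (chr15:76296601-76328015, 27 exons, minus strand) encodes 5-oxoprolinase, which turns 5-oxoproline back into glutamate for a new round of synthesis, and its last exon is overlapped by Smpd5 on the opposite strand. Its CPM was 64.8, 49.9, 54.4, 56.2 and 64.9 in WT Con and 72.1, 63.5, 64.2, 85.6 and 93.0 in WT MR. Among NRF2 KO mice the lowest, median and highest were 57.5, 67.9 and 79.7 on Con and 61.6, 67.5 and 71.0 on MR, where all the MR values lie inside the range on Con. The WT groups overlapped at 63.5 to 64.9 CPM.

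Oplah rose 1.30-fold in WT (log2 fold change 0.38, SE 0.11, adjusted p = 0.021, edgeR), and this call was lost without WT_CON_7603, WT_MR_7615 or WT_MR_7616, with adjusted p up to 0.074 and a log2 fold change down to 0.30, and also with only the WT groups in the fit (adjusted p = 0.059, edgeR) and with all 24 mice (adjusted p = 0.056, edgeR). In NRF2 KO the log2 fold change was -0.01 (95% interval -0.21 to 0.19). The genotypes were not called different on Con (0.22, adjusted p = 0.33, edgeR) or on MR (-0.17, adjusted p = 0.50, edgeR).

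Ggct (chr6:54982580-54992950, 4 exons, minus strand) encodes γ-glutamylcyclotransferase, which releases 5-oxoproline from γ-glutamyl amino acids. Its CPM was 14.1, 15.4, 12.2, 12.1 and 11.8 in WT Con and 14.4, 13.8, 13.8, 16.0 and 11.1 in WT MR. The lowest, median and highest in NRF2 KO were 7.01, 10.3 and 21.7 on Con and 13.7, 16.6 and 20.4 on MR. The MR mice of NRF2 KO lie above all but 1 mouse on Con, KO_CON_7621, which has the 21.7 CPM.

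Ggct was not called in WT (log2 fold change 0.08, 95% interval -0.35 to 0.50) and was 1.47-fold higher on MR in NRF2 KO (0.56, SE 0.18, adjusted p = 0.049, edgeR). That call stands at the threshold: it was lost in 20 of 22 fits that each left out 1 mouse, with adjusted p up to 0.12. Without KO_CON_7621 the rise was 0.86 (adjusted p = 0.0001, edgeR), and Ggct was then also called lower in NRF2 KO than in WT on Con (-0.50, adjusted p = 0.033, edgeR).

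**Figure D3:**
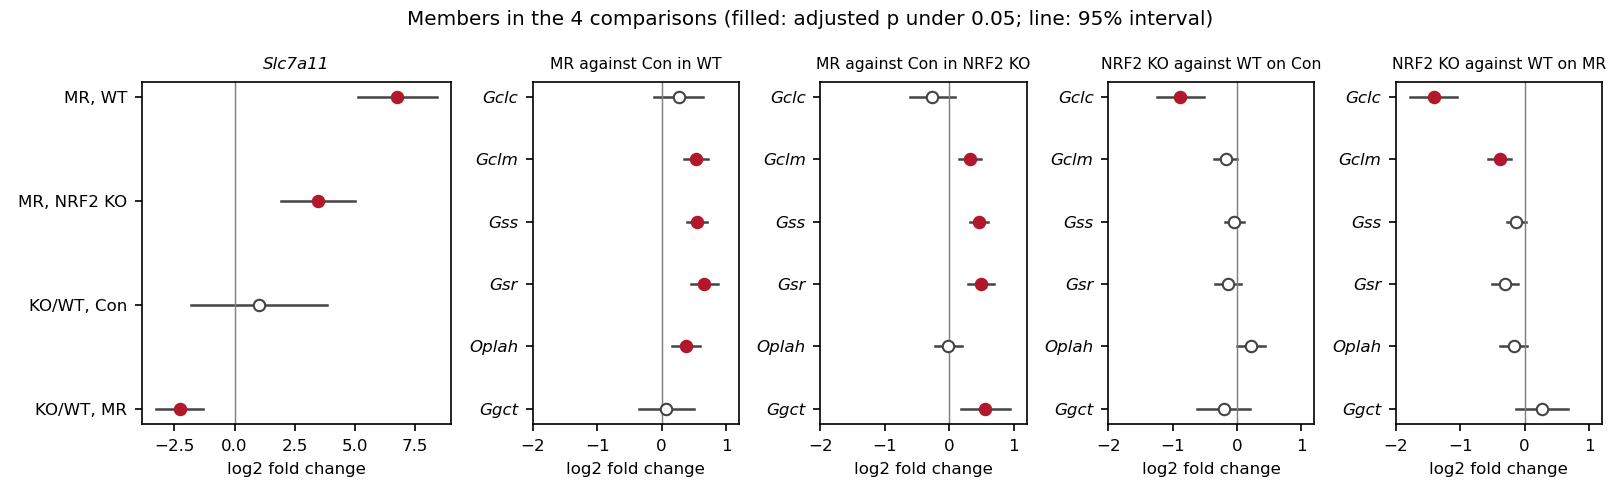
Log2 fold change (horizontal axes, points) with its 95% interval (lines) for Slc7a11 in the 4 comparisons (first panel, with its own scale) and for the other 6 genes in each comparison (a common scale), where filled points are called at adjusted p under 0.05. Slc7a11 has the largest changes of the 7 genes with diet, Gclm, Gss and Gsr rise in both genotypes, and Gclc lies below 0 in both comparisons of genotype.

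Whether diet acted differently in the genotypes was tested as an interaction, and 0 of the 7 genes passed (0.0450% of all genes tested did). DESeq2 called 0 of the 7 as well. At an unadjusted p under 0.05 there were 2 of 6 without Slc7a11 and 3 of the 7 with it, beside 7.56% of all genes tested. They were Slc7a11 (-3.31, 95% interval -6.37 to -0.25, adjusted p = 0.63), Gclc (-0.53, -1.04 to -0.01, adjusted p = 0.64) and Oplah (-0.39, -0.69 to -0.09, adjusted p = 0.50) by edgeR, all with a lower log2 fold change with MR in NRF2 KO than in WT, which for Gclc was 0.27 in WT and -0.26 in NRF2 KO. With all 24 mice the interaction of Slc7a11 was -0.67 (adjusted p = 0.99, edgeR). For Gclm, Gss, Gsr and Ggct the values were -0.22, -0.09, -0.17 and 0.48, with adjusted p from 0.72 to 0.89 by edgeR. In simulated data of this design the interaction recovered 33 of 98 genes changed 2-fold and 94 of 99 changed 4-fold. The changes there were made in WT MR only, and all genes were given the same fixed spread between mice. Recovery at the level and spread of each of the 7 genes was not tested. The numbers therefore do not show how readily a change would be found in Slc7a11, with 0 to 5 reads per mouse on Con.

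Mice of a group varied most in Slc7a11, with a coefficient of variation of 56.9% in WT MR and 88.1% in NRF2 KO MR. For Gclm, Gss and Gsr it was 5.48% to 13.7% in the 4 groups, and for Gclc 11.0% to 25.8%, the WT Con value falling from 22.4% to 6.00% without the library labelled WT_CON_7607. By correlation of log2 CPM over the 22 mice, the genes most like each member were Hspa9 (r = 0.909) for Slc7a11, Ces1f (r = 0.936) for Gclc, Dnajc21 (r = 0.930) for Gclm and Degs1 (r = 0.943) for Gss. They were Rpl27 (r = 0.911) for Gsr, Mrpl17 (r = 0.779) for Oplah and Thap12 (r = 0.822) for Ggct. These are descriptions over 11997 genes, in which the 22 points share their 4 groups and their libraries.

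Beyond these 7 genes, 39 genes of glutathione handling were listed, of which 35 were measured and 32 tested. In WT, MR raised 10 of the 32 and lowered 2, in NRF2 KO it raised 6 and lowered 1, and between genotypes 0 were called on Con and 2 were lower in NRF2 KO on MR. Over all genes tested, MR raised 6.91% and lowered 6.91% in WT, and raised 6.23% and lowered 6.34% in NRF2 KO. On MR 1.38% of all genes tested were called lower in NRF2 KO. Between genotypes on Con DESeq2 called 1 of the listed genes, and 4 had an unadjusted p under 0.05 by edgeR, and on MR these numbers were 4 and 10. Over all genes DESeq2 called 444 on Con and 496 on MR. The share of all genes at that unadjusted p was not computed for genotype. Without the library labelled WT_CON_7607, 4 of the listed genes were called lower in NRF2 KO on MR. They were Abcc2 (adjusted p = 0.021, edgeR) and Slc25a10 (adjusted p = 0.027, edgeR) beside Abcc4 and Esd. Of the 12 calls in WT, 5 were lost without the library labelled WT_CON_7607, namely Abcc2, Chac1, Ggt5, Ggt6 and Slc25a11, with adjusted p from 0.061 to 0.10 by edgeR.

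The partner of Slc7a11, Slc3a2, encodes the heavy chain that carries xCT to the cell surface. Slc3a2 rose from 54.5 ± 9.29 to 116 ± 25.2 CPM in WT (SD, n = 5 each) and from 58.8 ± 4.34 to 116 ± 27.9 in NRF2 KO (SD, n = 6 each), without overlap of the diets in either. The log2 fold changes were 1.09 (SE 0.16, adjusted p = 0.00015) and 0.98 (SE 0.15, adjusted p = 0.00022) by edgeR. Slc3a1, the heavy chain of another cystine transporter, rose by 0.94 and 0.56 (adjusted p = 0.0053 and 0.048, edgeR). Slc1a5, a neutral amino acid transporter, rose in NRF2 KO (0.88, adjusted p = 0.038, edgeR).

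Among the 7 genes of glutathione breakdown that were tested, Chac1, which cleaves glutathione inside the cell, rose on MR from 3.73 ± 0.718 to 9.07 ± 4.16 CPM in WT (log2 fold change 1.29, adjusted p = 0.043, edgeR). In NRF2 KO Chac1 rose from 3.53 ± 1.56 to 15.7 ± 9.01 CPM (2.16, adjusted p = 0.00095, edgeR), without overlap. Ggt6, of the γ-glutamyltransferase family, rose by 0.61 and 0.86 (adjusted p = 0.034 and 0.0028, edgeR), and Ggt5 of the same family fell by 0.71 on the log2 scale in WT (adjusted p = 0.039, edgeR).

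Of 8 transporters of glutathione or its conjugates, 5 rose in WT on MR, and the single call in NRF2 KO was Slc25a10, a mitochondrial carrier, which fell by 0.35 on the log2 scale (adjusted p = 0.018, edgeR). Abcc4, an efflux pump of the plasma membrane, rose in WT from 2.58 ± 0.490 to 24.4 ± 8.96 CPM (log2 fold change 3.22, SE 0.26, adjusted p = 3.7e-08, edgeR). In NRF2 KO Abcc4 was at 2.67 ± 0.324 CPM on Con and 4.10 ± 1.64 on MR. It was the single gene of the 32 called in the interaction (-2.60, SE 0.35, adjusted p = 0.002, edgeR), a call that was lost with all 24 mice (-2.78, adjusted p = 0.18, edgeR). Abcc2, Abcc5, Slc25a39 and Slc25a11 rose in WT by 0.37, 0.64, 0.37 and 0.24 (log2).

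Of 6 peroxidases tested, Gpx3 fell by 0.89 on the log2 scale in WT on MR (adjusted p = 0.015, edgeR) and Gpx7 rose by 1.32 in NRF2 KO (adjusted p = 0.0019, edgeR). Of 7 glutaredoxins and glyoxalases, Glrx3 rose by 0.25 in WT (adjusted p = 0.018, edgeR), and Esd, which hydrolyses S-formylglutathione, was lower in NRF2 KO on MR (-0.37, adjusted p = 0.042, edgeR).

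**Figure D4:**
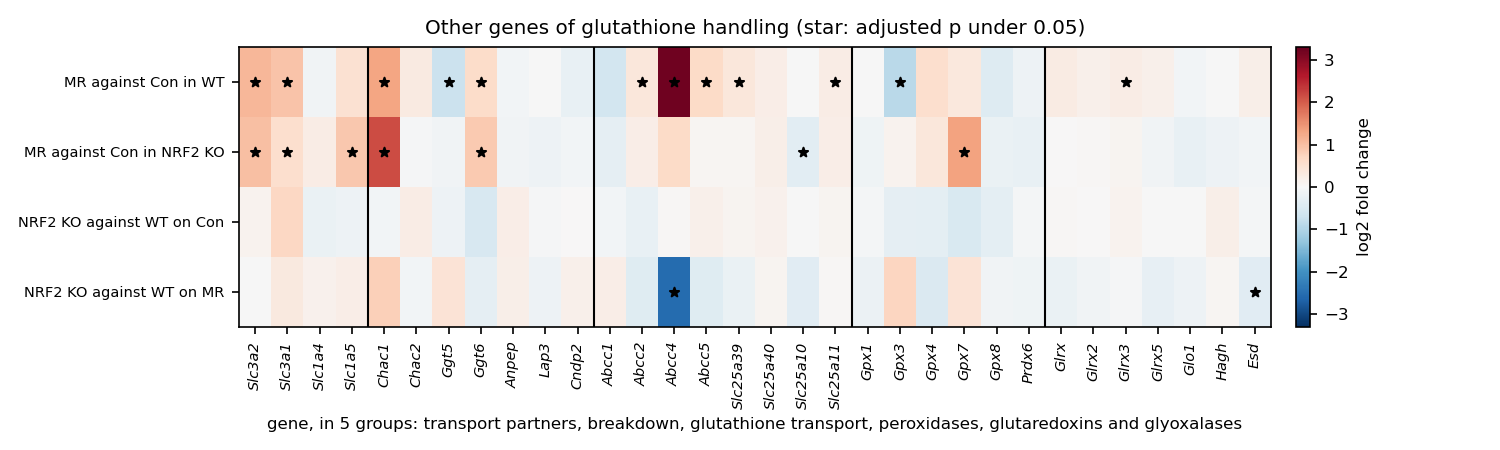
Log2 fold change (colour, red higher and blue lower) of the 32 tested genes of glutathione handling (columns, in 5 groups divided by lines) in the 4 comparisons (rows), where stars mark an adjusted p under 0.05. Slc3a2, Slc3a1, Chac1 and Ggt6 are starred on MR in both genotypes, and Abcc4 stands out at 3.22 on MR in WT and -2.55 between genotypes on MR.

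Lists of targets of the 2 transcription factors were measured beside the 7 genes, and neither list holds any of the 7. Of 15 NRF2 targets, MR raised 10 in WT (median log2 fold change 1.42) and 7 in NRF2 KO (0.80), and NRF2 KO lowered 9 on Con (-1.13) and 11 on MR (-1.53). Without the library labelled WT_CON_7607 the calls, counting both directions, were 10, 9, 9 and 11 in this order. Of 22 ATF4 targets tested, MR raised 14 in WT (1.06) and 12 in NRF2 KO (0.98). NRF2 KO lowered 1 on Con (Trib3, -0.86, adjusted p = 0.0099, edgeR) and 0 on MR by edgeR. On MR 8 had an unadjusted p under 0.05 by edgeR, Chac1 being higher in NRF2 KO (0.78) and the others lower, and the share of all genes at that p was not computed for genotype. Counting both directions, DESeq2 called 1 there. Asns, an ATF4 target that makes asparagine, rose by 4.09 in WT and 3.86 in NRF2 KO. Among 10 regulators, Nfe2l2 being 1 of them, MR raised 1 in WT and 5 in NRF2 KO by edgeR. Counting both directions, DESeq2 called 5 in each genotype. In WT these included Nfe2l2, at -0.65 on MR (adjusted p = 0.02, DESeq2). By edgeR Nfe2l2 was not called in WT (-0.66, adjusted p = 0.053), and without the library labelled WT_CON_7607 it was at -0.21 (adjusted p = 0.17, edgeR). In NRF2 KO it was at -0.31 on MR, called without that library (adjusted p = 0.016, edgeR) but not with it (adjusted p = 0.34, edgeR). Mafg, a small MAF partner of NRF2, rose in both genotypes (0.59 and 0.56). Between genotypes Mafg was called only without the library labelled WT_CON_7607. It was then lower in NRF2 KO on Con (-0.36, adjusted p = 0.013, edgeR) and on MR (-0.30, adjusted p = 0.029, edgeR). In NRF2 KO, Maff, of the same family (1.22, adjusted p = 0.00093), Bach1, a repressor at antioxidant response elements (0.38, adjusted p = 0.0049), Atf4 (0.34, adjusted p = 0.013) and Cebpg, a partner of ATF4 (0.34, adjusted p = 0.031), rose too by edgeR, and in WT these were at 0.72, 0.22, 0.27 and 0.33, with adjusted p from 0.053 to 0.11. None of the 10 was called in the interaction by edgeR or DESeq2, and 0 had an unadjusted p under 0.05. Mafk, another small MAF protein, was lower in NRF2 KO on Con (-0.69, adjusted p = 0.0085, edgeR).

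Markers of liver cells also moved with diet. The summed level of 6 of 6 bile duct markers was 49.1 to 74.7 CPM in WT Con and 21.3 to 28.4 in WT MR, and 31.9 to 53.4 and 20.8 to 29.2 in NRF2 KO. That of 8 of 8 macrophage markers was 331 to 459 CPM in WT Con and 270 to 304 in WT MR, and 292 to 444 and 252 to 338 in NRF2 KO, where the diets overlap. That of 7 of 7 stellate cell markers was 429 to 707 CPM in WT Con and 376 to 479 in WT MR, and 492 to 560 and 416 to 539 in NRF2 KO. For these the diets overlap in both genotypes. That of 2 of 5 adipose markers was 17.4 to 24.2 CPM in WT Con and 11.3 to 12.5 in WT MR, and 11.5 to 27.8 and 10.6 to 17.5 in NRF2 KO, where the diets overlap. Endothelial markers (6 of 6) summed to 250 to 302 and 272 to 297 CPM in WT and to 257 to 299 and 288 to 325 in NRF2 KO. In such bulk samples fewer cells of a type and less RNA per cell cannot be told apart, and the part of these markers in the changes of the 7 genes was not tested.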

How the data were processed

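Liver RNA of 24 male mice was sequenced as QuantSeq 3′ libraries, 1 per mouse. The deposited count values are raw reads of each gene, made by the authors with the kit maker's pipeline (builds GRCm38 and mm10 in the submitters' processing notes). The aligner, the annotation and the use of strand are not given in the sources used here. The deposited signal values come from these counts through DESeq2's size factors (DESeq2 1.18.1 and R 3.4.3 in those notes), and they equal counts over size factors with a largest relative deviation of 9.8e-15. They served 1 alternative.

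edgeR 4.0.16 in R 4.3.3 was run on the counts: filter by expression (13336 of 15160 genes kept), TMM scaling, robust dispersions and quasi-likelihood F-tests (robust), with 4 group means fitted together over 22 mice, without WT_CON_7604 and WT_MR_7612. Calls were made at p under 0.05 after Benjamini-Hochberg adjustment over all genes tested. The p-values measure the spread between mice. The comparisons were MR against Con in each genotype, NRF2 KO against WT on each diet, and their interaction. Means ± SD are over mice, in CPM. Alternatives used other scaling, other filters, DESeq2 1.42.0, limma 3.58.1 on log2(signal + 1), fewer or more mice, and each mouse left out. Tested on simulated data of 13336 genes, all given the same fixed spread between mice, MR against Con in WT recovered 70 of 98 genes changed 2-fold and 99 of 99 changed 4-fold, with 9 false calls. This counts all changed genes together, and recovery at the level and spread of each of the 7 genes was not tested. No 2 libraries of a group agreed within sampling noise (chi-square per degree of freedom at least 8.32).

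The members, lists and tests were chosen with earlier results of these data known. The text names the 7 genes, Nfe2l2, each listed gene of glutathione handling with a call, up to 3 of the most changed genes of each reference list, called regulators, and the gene most like each member (of 3 ranked by Pearson r of log2 CPM with a prior count of 2, among genes with a mean CPM of at least 1). The NRF2 targets called lower in NRF2 KO on Con are named too, for the library labelled WT_CON_7607. Positions are from GENCODE M21 on GRCm38 and promoters from RefSeq on GRCm38.p6.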

Additional observations from a re-analysis of the deposited data

Results flagged for a closer look

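In 28 sets of values (7 genes in 4 groups), 2 held a mouse far from the rest of its group by Dixon's criterion, which flags about 5.0% of groups by chance. Gclc was at 256 CPM in the library labelled WT_CON_7607, beside 428 to 493 in the other WT Con mice, a gap of 0.727 of the range. This library is also the one with 324 CPM of Nfe2l2. Ggct was at 21.7 CPM in KO_CON_7621, beside 7.01 to 10.5 in the other NRF2 KO Con mice, a gap of 0.762 of the range.

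The mice left out of the fit were compared with WT Con as unused data, in the scaling of all 24 mice. WT_CON_7604 was above every other WT Con mouse in Slc7a11 (9.57 CPM beside 0 to 0.154), Gss (73.1 beside 40.1 to 49.1) and Gsr (33.0 beside 23.4 to 28.8). WT_MR_7612 was above every WT Con mouse of the fit in Slc7a11 (132 CPM), Gss (86.5), Gsr (32.8) and Ggct (21.5). The other WT MR mice were at 2.87 to 16.4, 57.5 to 65.6, 35.1 to 46.3 and 11.2 to 16.2 CPM in the same order, so its Slc7a11, Gss and Ggct lay above its own group and its Gsr below it. Its Gclm (200.1 CPM beside 256 to 303) and Oplah (52.4 beside 63.8 to 93.7) also lay below its group, and its Gclc (590 CPM) was above the WT Con mice of the fit but within its group. In WT_CON_7604 the levels of Gclc (474 CPM), Gclm (185), Oplah (53.8) and Ggct (14.3) lay within its group. The causes were not tested.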

How the results depend on the processing

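No paired analysis was possible because the mouse numbers of the labels are not shared between groups. Of 301 values of the 7 genes under 9 alternatives, 286 kept their direction and their side of the threshold, 10 lost a call, 1 gained one and 4 turned their sign. Of 770 values with 1 mouse left out, the numbers were 739, 23, 1 and 7. Nfe2l2 is not in these totals. Its call between genotypes on Con (0.83, adjusted p = 0.045, edgeR) was lost in 20 of 22 fits with 1 mouse left out. Without WT_CON_7607 it was 1.27 (adjusted p = 6.4e-09, edgeR). The number of the 7 genes called on MR in NRF2 KO went from 5 to 3 with all 24 mice. It also went to 3 with only the groups compared in the fit, where Ggct lost its call (adjusted p = 0.12, edgeR) and Slc7a11 was not tested. For NRF2 KO against WT on Con it went from 1 to 0 with only the groups compared, where Slc7a11 was not tested either. With 1 mouse left out it was 4 to 5 on MR in WT, 4 to 5 on MR in NRF2 KO, 1 to 2 for genotype on Con (2 without KO_CON_7621) and 3 for genotype on MR. Slc7a11 on MR in NRF2 KO was also not called with quality weights on all 24 mice (adjusted p = 0.23, limma), and Slc7a11 between genotypes on MR was not called with only those groups in the fit (adjusted p = 0.075, edgeR). Signs turned for Oplah on MR in NRF2 KO (0.14 with library size alone, 0.0009 with limma on the deposited normalized values, 0.0101 with quality weights, and -0.0549 to 0.0393 with 1 mouse left out), Slc7a11 between genotypes on Con (-3.37 with all 24 mice), Gss between genotypes on Con (-0.0754 to 0.0084 with 1 mouse left out) and the interaction of Nfe2l2 (-0.0988 to 0.4647, below 0 without WT_CON_7607). The causes were not tested. A minimum of 10 counts in every mouse removed Slc7a11, as did the fits of only the NRF2 KO groups and of only the Con groups. A fit of only the groups compared gives no interaction. Scaling by library size alone moved the median of all genes by 0.15 on MR in NRF2 KO, where 2397 genes were then called higher and 388 lower (831 and 846 with TMM), and gave 1434 and 526 in WT (922 and 921 with TMM), 63 and 165 for genotype on Con (107 and 169 with TMM) and 2 and 5 in the interaction (3 and 3 with TMM). The 7 genes kept the same counts of calls under it. Over all genes, calls on MR in NRF2 KO went from 1677 to 2785 with library size alone and 2693 with quality weights. Calls between genotypes on Con went from 276 to 444 with DESeq2, 99 with only the groups compared and 181 without WT_CON_7603, and on MR from 258 to 496, 600 and 604 with DESeq2, only the groups compared and quality weights. The interaction went from 6 to 36 with DESeq2, and to 3 to 12 with 1 mouse left out. Depth limits Slc7a11 on Con, where no mouse in the fit had more than 5 reads.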
